A study of Mus musculus with 32 samples.

Results

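Clearance of dying cells rests on receptors that read phosphatidylserine on the dying cell and on soluble bridges that carry that signal to the phagocyte, and 9 such mouse genes were followed here: Axl, Mertk and Tyro3, Gas6 and Pros1, Mfge8, Timd4, Stab1 and Cd36. They were chosen by name as genes of this pathway. All 9 were listed in both deposited count tables, out of 24411 gene symbols in the table of the CD11c-DTR chimeras and 24421 in that of the CX3CR1-DTR chimeras. A gene was tested where at least 3 libraries held at least 50 normalized reads, which left 11842 genes and 8 of the 9 members, without Mertk, in the CD11c-DTR chimeras. In the comparisons that involve the CX3CR1-DTR chimeras 11718 genes and 7 members were tested, without Mertk and Timd4. Timd4, Tyro3, Gas6, Stab1 and Cd36 passed this minimum only through gut libraries, so the number of members called against the graft describes these genes and is no support for a pattern of the list.

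As background, TIM4 (from Timd4) and stabilin-1 (from Stab1) bind phosphatidylserine directly. AXL, MERTK and TYRO3, known together as TAM receptors, are tyrosine kinases that reach phosphatidylserine through their ligands GAS6 and protein S (from Pros1). MFG-E8 (from Mfge8) is a secreted bridge to alpha v integrins, and CD36 is a scavenger receptor that also takes up oxidized lipids and fatty acids. Resident macrophages of the gut are known for constant uptake of dying cells without inflammation. Several of these genes are also used outside macrophages: GAS6 and MFG-E8 are made by stromal and epithelial cells, and stabilin-1 and CD36 are found on some endothelial cells.

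RNA-seq libraries were made from sorted cells of C57BL/6J mice. The graft was 3 libraries of bone marrow Ly6C+ monocytes (CD117- CD11b+ CD115+ Ly6C+ GFPint) of Cx3cr1 gfp/+ donors with the CD45.1 allotype; its labels give the organ as blood. Recipients were bone marrow chimeras of wild-type mice with Itgax-DTR (CD11c-DTR) marrow, in which diphtheria toxin, given before and on alternate days after transfer, ablates CD11c-positive cells with the toxin receptor. From these chimeras macrophages labelled CD45+ CD11b+ CD64+ Ly6C- MHCII+ were sorted from colon (3 libraries at day 4, 3 at day 8 and 4 at day 12) and ileum (4 libraries at each of these days). These markers are those of the labels. By the paper, graft-derived cells were sorted by CD45.1 and GFP and were CD11b+ CD64+ Ly6C-. It gives the MHCII+ gate for resident macrophages and reports a delayed onset of MHCII in engrafted cells. In a second model, 6 colon libraries came from chimeras with Cx3cr1-DTR marrow under the same toxin, with no day in the labels. For this group the study's own list of data sets gives fewer repeats than the labels and a later day than any of the first model. Model and day therefore cannot be told apart in the comparison with day 12. The header of its table is shorter than the rows, and the 6 columns were taken by the position of their names in that header. Thus every gut group carried donor cells with 1 GFP-replaced Cx3cr1 allele in toxin-treated chimeras, and libraries of resident gut macrophages were not analysed here. Ages, and whether a library pools several mice, were not given in the labels used here. Dates in the labels place the CD11c-DTR libraries in 3 transfer experiments. The date of ileum day 8 replicate 2 fits none of them as written, and it was read as a slip in the year and placed in experiment 3, on which the values by experiment below rest.

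Reads on genes ranged from 591817 to 5228664 per library in the CD11c-DTR table and from 1223772 to 4218027 in the CX3CR1-DTR libraries. A normalized read below is 1 read per 10000000 mapped reads, so that 1 counted read was worth between 1.17 and 9.22 normalized reads. Against their labels, the gut libraries held RNA of other cells. The 10 markers of intestinal epithelium summed to between 32.9 and 59.0 normalized reads in the graft, between 97490 and 154600 in colon and between 18280 and 119800 in ileum. The pan-leukocyte list (6 genes) ran the other way, with 67680 to 76470 normalized reads in the graft, 1407 to 6240 in colon and 4406 to 31410 in ileum. The macrophage list (11 genes) held 66950 to 91570, 2728 to 14140 and 6020 to 57480. Endothelial markers (9 genes) summed to at most 7.27 in the graft, to between 240 and 1095 in colon and to between 196 and 5831 in ileum, and the 8 fibroblast markers, all at 0 in the graft, reached 511 to 5099 in colon and 242 to 4766 in ileum. The B and plasma cell list (7 genes) summed to between 239 and 267 in the graft, between 664 and 8485 in colon and between 3336 and 141900 in ileum. Its ileum medians (39850, 46250 and 37470 at days 4, 8 and 12) were of the size of the epithelial medians at days 8 and 12 (31020 and 37430). Like Axl, Stab1, Cd36, Mfge8 and Pros1, it was higher in ileum than in colon at days 8 and 12. The same held for the endothelial sums (at day 12, 1967 to 4654 in ileum and 240 to 1095 in colon). It also held for the macrophage and pan-leukocyte medians (at day 12, 17610 and 10810 in ileum, 5630 and 2425 in colon). Epithelial sums were lower in ileum on these days. In bulk RNA, fewer cells of a type and less RNA per cell cannot be told apart. The part of these other cells in each result below was not tested.

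**Figure D1:**
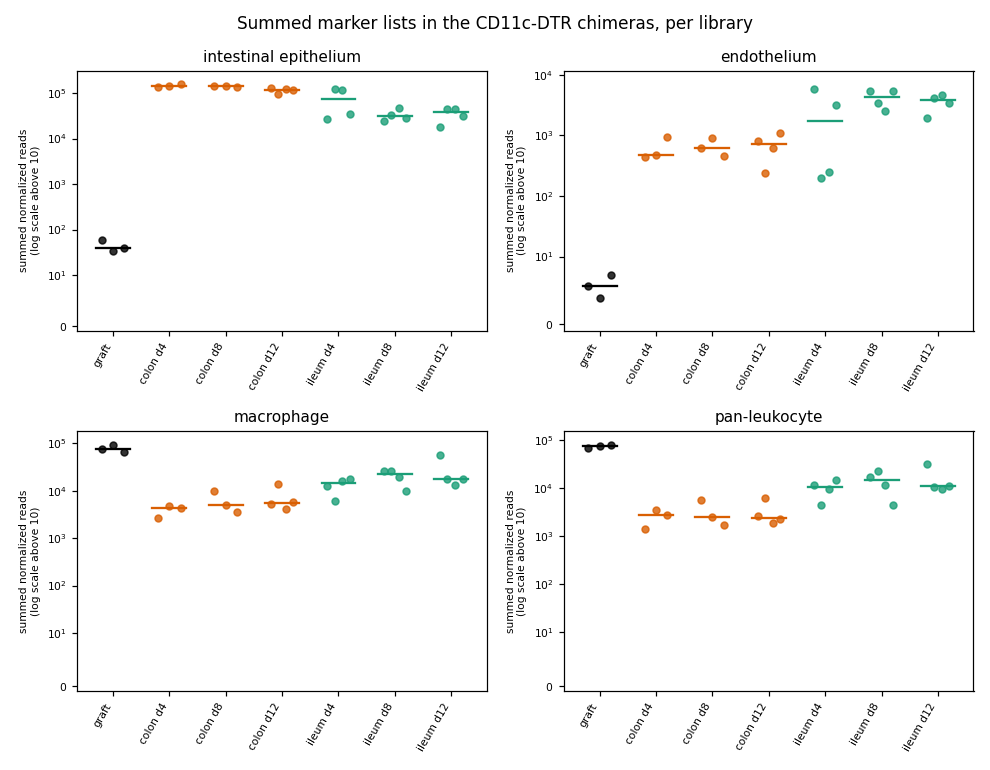
Summed normalized reads of 4 marker lists in each CD11c-DTR library (points) with the group median (line); the vertical axis is logarithmic above 10. Epithelial sums of all 22 gut libraries lie at 18280 or above and those of the 3 graft libraries at 59.0 or below, whereas the medians of the macrophage and pan-leukocyte sums are highest in the graft and lowest in colon.

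In mm9, the build of the deposited tables, Tyro3 (NM_019392) lies at chr2:119625250-119643839, Mertk (NM_008587) at chr2:128524733-128627924, Cd36 (NM_007643) at chr5:17287508-17341714 and Axl (NM_009465) at chr7:26541519-26573752. Mfge8 (NM_008594) lies at chr7:86278654-86293946, Gas6 (NM_019521) at chr8:13465374-13494535, Timd4 (NM_178759) at chr11:46624301-46657835, Stab1 (NM_138672) at chr14:31952203-31981827 and Pros1 (NM_011173) at chr16:62854133-62929168. Counts are the reads on the exons of each gene.

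The members fell into a pair that was higher in colon (Gas6 and Tyro3) and a larger set that was higher in ileum at days 8 and 12, and the sequence before the start site of 2 genes of each set is shown so that the reader can compare them. Each is the 250 bases upstream of the RefSeq start in GRCm38.p6, read 5' to 3' on the strand of the gene. Capitals mark 5 motifs searched on both strands: GAGGAA (a core of PU.1 and other ETS sites), GGGCGG (GC box), TTGCNNAA (C/EBP), AGGTCA (nuclear receptor half-site) and CACGTG (E-box of the CLEAR type).
Gas6, chr8:13494536-13494785, minus strand: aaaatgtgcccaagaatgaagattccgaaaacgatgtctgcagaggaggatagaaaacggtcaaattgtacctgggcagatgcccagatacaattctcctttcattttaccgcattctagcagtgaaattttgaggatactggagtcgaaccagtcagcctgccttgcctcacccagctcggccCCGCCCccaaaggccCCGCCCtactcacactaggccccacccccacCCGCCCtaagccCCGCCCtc
Tyro3, chr2:119799264-119799513, plus strand: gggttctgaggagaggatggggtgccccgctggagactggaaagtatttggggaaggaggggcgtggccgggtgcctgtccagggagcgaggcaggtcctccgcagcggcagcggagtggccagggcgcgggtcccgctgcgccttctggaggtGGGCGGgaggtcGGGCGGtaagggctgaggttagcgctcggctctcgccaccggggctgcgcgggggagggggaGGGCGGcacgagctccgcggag
Stab1, chr14:31168642-31168891, minus strand: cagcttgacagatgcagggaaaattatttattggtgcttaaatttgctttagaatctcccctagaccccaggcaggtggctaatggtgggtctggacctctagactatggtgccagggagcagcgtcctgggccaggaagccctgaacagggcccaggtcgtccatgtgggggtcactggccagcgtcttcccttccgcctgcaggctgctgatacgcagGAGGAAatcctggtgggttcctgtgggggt
Axl, chr7:25788734-25788983, minus strand: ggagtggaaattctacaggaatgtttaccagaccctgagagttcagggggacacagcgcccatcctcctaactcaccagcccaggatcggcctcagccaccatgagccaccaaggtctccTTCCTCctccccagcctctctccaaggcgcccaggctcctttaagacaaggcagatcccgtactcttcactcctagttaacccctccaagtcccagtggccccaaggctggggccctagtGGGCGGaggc
The Gas6 window held 4 GC boxes and the Tyro3 window 3, and neither held any of the other 4 motifs. The Stab1 window held 1 GAGGAA and no GC box, and the Axl window held 1 of each. Of 32851 RefSeq promoter windows of this length, 32.7% held a GC box, 23.3% GAGGAA, 14% AGGTCA, 9.56% TTGCNNAA and 6.02% CACGTG. Across the other members, the GC box was found 5 times before Pros1, with an overlap between a pair of them, 4 times before Mfge8, 3 times before Mertk and 2 times before Cd36, and not before Timd4. GC content was 54.8% before Gas6, 73.2% before Tyro3 and 57.2% before Stab1, against a median of 52.4% over all windows. A match is a run of letters and was not tested as a binding site.

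Gas6, the bridge that activates all TAM receptors, was nearly absent from the graft and abundant in every gut library. The 3 graft libraries held 0, 1 and 0 reads. Colon libraries held 2517, 2129 and 3725 normalized reads at day 4, 3046, 2949 and 3766 at day 8, and 3283, 1831, 1634 and 2992 at day 12. In ileum the values were 700, 2135, 3281 and 756 at day 4, 792, 1625, 940 and 513 at day 8, and 559, 917, 952 and 1186 at day 12. No gut library overlapped the graft, and no ileum library of day 8 or day 12 reached the lowest colon library of its day. With 1 read in the graft, the ratio of pooled counts was 3085 for colon at day 12 (95% exact interval 553 to 121878, counting error only) and 1206 for ileum at day 12 (216 to 47646). The fitted change from the graft passed the test at all 6 gut groups, with adjusted p from 1.6e-10 to 1.4e-09.

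Colon exceeded ileum for Gas6 by 1.51 ± 0.43 (SE) on the log2 scale at day 8 (adjusted p = 0.0097) and by 1.28 ± 0.41 at day 12 (adjusted p = 0.019). At day 4 the difference was 0.55 ± 0.43 (adjusted p = 0.49). The 4 ileum libraries of day 4 were split by experiment: the pair of experiment 1 (replicates 2 and 3) held 2135 and 3281 normalized reads and the pair of experiment 2 (replicates 1 and 4) 700 and 756. The summed epithelial markers divided the same libraries, with 119800 and 115900 in the pair of experiment 1 and 26840 and 34770 in that of experiment 2. Fitted with the ileum libraries of experiment 2 only, the day 4 difference was 1.89 (adjusted p = 0.0011). The day 12 call was lost without colon replicate 4 (1.11, adjusted p = 0.060) and without ileum replicate 1 (1.13, adjusted p = 0.062). Epithelial sums were higher in colon than in ileum at each of these days. Their medians at days 4, 8 and 12 were 139500, 141100 and 117500 in colon and 75340, 31020 and 37430 in ileum. The part of epithelial RNA in the Gas6 difference was not tested.

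Pros1, the other TAM ligand, was present in the graft at 177, 136 and 99.3 normalized reads. In colon it ranged from 77.1 to 97.8 at day 4, from 70.5 to 105 at day 8 and from 86.5 to 103 at day 12. In ileum it ranged from 76.9 to 340 at day 4, from 90.4 to 271 at day 8 and from 54.3 to 556 at day 12. Colon libraries lay near or below the lowest graft library, whereas ileum was wide and had both the lowest and the highest library of all at day 12. With all libraries of the fit, only ileum at day 12 passed the test against the graft, with a log2 fold change of 1.64 ± 0.53 (adjusted p = 0.011); without graft replicate 3 it was 1.48 (adjusted p = 0.053) and with scaling to mapped reads 1.21 (adjusted p = 0.051). Ileum at day 8 passed with only the compared groups in the fit (1.09, adjusted p = 0.040), with only experiment 2 at ileum day 4 (1.10, adjusted p = 0.047) and without ileum day 8 replicate 3 (1.35, adjusted p = 0.040) or ileum day 12 replicate 1 (1.10, adjusted p = 0.030). Ileum at day 4 passed with only its experiment 2 libraries (1.57, adjusted p = 0.019) and without its replicate 2 (1.26, adjusted p = 0.047). For colon at day 12 the fitted change was -0.18 ± 0.52 (adjusted p = 0.78). The lowest ileum library of day 12 (replicate 1, 54.3) was also the one with the highest macrophage sum, 57480, against 13350 to 17720 in the other 3.

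Among the TAM receptors, Axl was measured throughout, Tyro3 was scarce and Mertk was at the limit of detection. Axl held 104, 196 and 124 normalized reads in the graft. Colon libraries held 181, 255 and 214 at day 4, 594, 300 and 208 at day 8, and 380, 526, 228 and 279 at day 12. Ileum libraries held 479, 250, 304 and 471 at day 4, 732, 691, 462 and 608 at day 8, and 1286, 601, 616 and 1025 at day 12. Every ileum library lay above the graft, and at day 12 every ileum library lay above every colon library. From the graft to ileum day 12 Axl rose by 3.15 ± 0.41 on the log2 scale, 8.86-fold (adjusted p = 9.1e-07), and from the graft to colon day 12 by 1.64 ± 0.39 (adjusted p = 0.00084). The change to colon day 4, 0.95 ± 0.41 (adjusted p = 0.046), was lost with experiment as a replicate block (0.79, adjusted p = 0.097), with scaling to mapped reads (0.61, adjusted p = 0.19) or to reads on genes (0.80, adjusted p = 0.091), with no minimum on reads (adjusted p = 0.057) and with all 4 colon day 8 libraries (adjusted p = 0.16). It was also lost without any one of 9 libraries (adjusted p from 0.050 to 0.16), namely graft replicates 1 and 3, colon day 4 replicates 2 and 3, colon day 12 replicates 1 and 4, ileum day 4 replicate 4 and ileum day 8 replicates 1 and 2.

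Tyro3, a TAM receptor best known from neurons, ran against Axl along the gut. The graft held 1 read in 3 libraries. Colon held 60.9, 20.8 and 95.6 normalized reads at day 4, 40.5, 52.2 and 29.3 at day 8, and 52.5, 34.3, 39.0 and 37.9 at day 12. Ileum held 9.91, 36.3, 0 and 35.7 at day 4, 0, 3.37, 3.35 and 0 at day 8, and 6.79, 18.8, 18.2 and 11.8 at day 12. Colon and ileum did not overlap at day 8 or day 12. The 4 ileum libraries of day 8 held 2 reads together, and none passed the limit of 3 counts. Against the graft, the ratio of pooled counts was 52.8 for colon at day 12 (interval 9.25 to 2109) and 2.04 for ileum at day 8 (0.106 to 120). The fitted change from the graft passed the test in 5 of the 6 gut groups, and ileum day 8 did not (adjusted p = 0.45).

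Colon exceeded ileum for Tyro3 at day 8 (log2 4.16 ± 0.81, adjusted p = 0.00074) and at day 12 (1.46 ± 0.54, adjusted p = 0.039). The day 12 call was lost with no minimum on reads (1.5, adjusted p = 0.052) and with all 4 colon day 8 libraries in the fit (1.46, adjusted p = 0.075). Tyro3 was also the member whose change between days passed the test: in ileum it fell from day 4 to day 8 by 3.48 on the log2 scale (SE 0.86, adjusted p = 0.021). That call was lost with experiment as a replicate block (-3.29, adjusted p = 0.22), with only these groups in the fit (adjusted p = 0.33), with only experiment 2 at ileum day 4 (adjusted p = 0.50) and without ileum day 4 replicate 2, ileum day 8 replicate 1 or ileum day 8 replicate 4 (adjusted p from 0.058 to 0.20). Mertk, the TAM receptor most used to define tissue macrophages, had no read in the graft. In the gut it ranged from 12.8 to 45.3 normalized reads, with 52 reads in the 4 ileum libraries of day 12 and 45 in the 4 colon libraries. Groups of both segments overlapped at each day. Taking 3 counts per graft library as the limit, ileum at day 12 was at least 4.18-fold higher than the graft and colon at day 12 at least 3.07-fold higher. With no minimum on reads the Mertk change from the graft passed the test in all 6 gut groups (adjusted p from 5e-06 to 2.8e-05), and colon against ileum had an adjusted p of 1.0, 0.85 and 0.47 at days 4, 8 and 12.

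**Figure D2:**
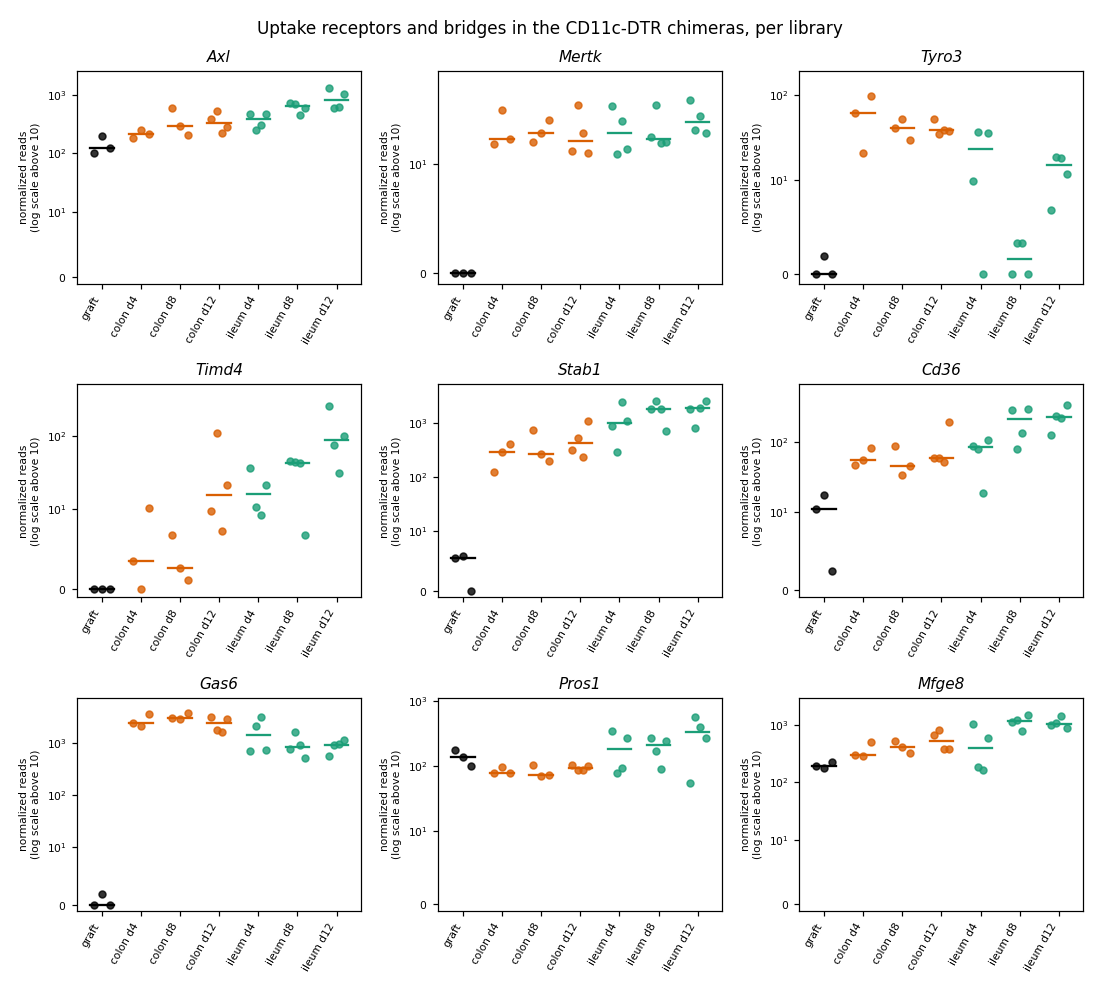
Normalized reads (per 10000000 mapped reads) of the 9 members in each CD11c-DTR library (points) with the group median (line), on an axis that is logarithmic above 10. Gas6, Stab1, Tyro3, Mertk and Timd4 sit at 0 to 6 in the graft; Gas6 and Tyro3 are higher in colon, and Axl, Stab1, Cd36 and Mfge8 are higher in ileum at days 8 and 12.

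Stab1, the scavenger receptor stabilin-1, rose from 5.61, 5.81 and 0 normalized reads in the graft to at least 122 in every colon library and at least 292 in every ileum library. Colon held 122, 293 and 405 at day 4, 746, 264 and 201 at day 8, and 313, 526, 230 and 1065 at day 12. Ileum held 878, 292, 2442 and 1091 at day 4, 1803, 2589, 1810 and 704 at day 8, and 1809, 823, 1908 and 2493 at day 12. Graft and gut did not overlap, and colon and ileum overlapped at each day. With 5 reads in the graft, the ratio of pooled counts was 132 for colon at day 12 (interval 56.6 to 408) and 500 for ileum at day 12 (214 to 1540). All 6 fitted changes from the graft passed the test (adjusted p from 1.6e-07 to 1.5e-05). Colon lay below ileum, with a log2 difference of -2.36 ± 0.68 at day 8 (adjusted p = 0.010) and -1.84 ± 0.59 at day 12 (adjusted p = 0.021). At day 4 the difference was -2.23 ± 0.68 (adjusted p = 0.062), and it was called with experiment as a replicate block (-2.65, adjusted p = 0.032), by DESeq2 (-2.21, adjusted p = 0.015), with only experiment 2 at ileum day 4 (-1.87, adjusted p = 0.034) and without ileum day 4 replicate 2 (-2.56, adjusted p = 0.0098).

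Timd4, the gene of the phosphatidylserine receptor that marks long-lived gut macrophages, was not detected in the graft, with 0 reads in 3 libraries. It held 7 reads in colon at day 4, 4 at day 8 and 60 at day 12, against 20, 45 and 217 in ileum. At day 12 the ileum libraries held 263, 75.2, 31.2 and 102 normalized reads and the colon libraries 9.73, 112, 7.31 and 21.4. Most colon libraries of days 4 and 8 were at or under the limit of 3 counts, so no lower limit of a fold is given for them. Fitted log2 values that involve these groups rest on few reads and give a direction, not a size. Against that limit in the graft, Timd4 was at least 16.4-fold higher in ileum and at least 5.25-fold higher in colon at day 12. Single libraries carried both limits: without ileum replicate 1 (263) the former was 9.69, and without colon replicate 2 (112) the latter was 1.79. The fitted change from the graft passed the test at colon day 12 and at all 3 ileum days (adjusted p from 4.3e-05 to 0.0051), and not at colon days 4 and 8 (adjusted p = 0.088 and 0.19). Colon at day 4 was called by DESeq2 (3.82, adjusted p = 0.028) and without colon day 12 replicate 2 (4.12, adjusted p = 0.043), and colon at day 8 with all 4 colon day 8 libraries (6.68, adjusted p = 0.016).

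Timd4 was lower in colon than in ileum at day 8, with a log2 difference of -3.74 ± 1.16 (adjusted p = 0.017). The size of this difference is uncertain, since the 3 colon libraries held 4 reads together and all were at or under the limit of 3 counts. This call was lost without colon day 8 replicate 3 or replicate 4 (adjusted p = 0.055 and 0.096). At day 12 the difference was -1.95 ± 0.75 (adjusted p = 0.051), and with experiment as a replicate block it was -2.10 (adjusted p = 0.021), and with only experiment 2 at ileum day 4 -1.97 (adjusted p = 0.041). It passed the test without any one of 6 libraries (adjusted p from 0.0025 to 0.048), namely colon day 12 replicate 2, ileum day 4 replicates 1 and 2, ileum day 8 replicate 4 and ileum day 12 replicates 2 and 3. Colon day 12 replicate 2 stood apart with 112 normalized reads, and without it the difference was -3.34 (adjusted p = 0.0025). The same colon library had the highest macrophage sum of its group, 14140 against 4074 to 5917. From day 8 to day 12 the fitted change was 3.56 ± 1.15 in colon (adjusted p = 1.0) and 1.77 ± 0.76 in ileum (adjusted p = 0.74), and in colon no library of day 12 fell below one of the 3 of day 8 in the fit. That gap was narrow, from 6.75 normalized reads at day 8 to 7.31 at day 12, and lies near the limit of detection. One more colon library labelled day 8, kept out of the tests and described below, held 141 normalized reads, more than any colon library of day 12.

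Cd36 and Mfge8 both rose from the graft and were higher in ileum than in colon at days 8 and 12. At day 4 the differences of colon from ileum were -0.39 (adjusted p = 0.77) and -0.57 (adjusted p = 0.48). Cd36 held 11.2, 17.4 and 2.42 normalized reads in the graft, 33.9 to 87.8 in colon at days 4 and 8, and 58.4, 59.2, 51.2 and 193 in colon at day 12. In ileum it ranged from 18.4 to 107 at day 4, from 80.9 to 302 at day 8 and from 125 to 337 at day 12. From the graft to ileum day 12 Cd36 rose by 4.88 ± 0.73 on the log2 scale (adjusted p = 5.7e-06), and to colon day 12 by 3.45 ± 0.72 (adjusted p = 0.00023). Mfge8 held 196, 176 and 225 normalized reads in the graft, 282 to 822 over the 10 colon libraries, and 793 to 1465 over the 8 ileum libraries of days 8 and 12. At ileum day 4 it was split by experiment, with 188 and 166 in experiment 1, below every colon library, and 1040 and 599 in experiment 2. Endothelial sums were 196 and 249 in the former pair and 5831 and 3167 in the latter. From the graft Mfge8 rose by 2.90 ± 0.48 to ileum day 12 (adjusted p = 1.9e-05) and by 1.81 ± 0.46 to colon day 12 (adjusted p = 0.0015).

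The smaller Mfge8 rises in colon were less firm. At day 4 the change from the graft was 1.19 ± 0.47 (adjusted p = 0.034), and it was lost with experiment as a replicate block (0.94, adjusted p = 0.091), with scaling to mapped reads (0.86, adjusted p = 0.12) or to reads on genes (1.03, adjusted p = 0.078), and without graft replicate 1, graft replicate 2 or colon day 4 replicate 3 (adjusted p from 0.078 to 0.15). At day 8 it was 1.31 ± 0.47 (adjusted p = 0.021), and it was lost with scaling to mapped reads (1.07, adjusted p = 0.058) and without graft replicate 1, graft replicate 2 or colon day 8 replicate 2 (adjusted p from 0.054 to 0.069).

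Counted together, 6, 6 and 7 of the 8 tested members rose from the graft to colon at days 4, 8 and 12, and 7, 6 and 8 rose to ileum; none fell. Over all 11842 genes 60.4%, 59.1% and 62.6% were called against the graft in colon at these days, and 56.7%, 53.9% and 55.9% in ileum. Called higher were 35.9%, 35.2% and 37.7% of all genes in colon and 36.2%, 34.3% and 35.9% in ileum. The share called higher rests on the scaling: of the genes called, 59.5%, 59.5% and 60.2% were higher in colon at days 4, 8 and 12 and 63.8%, 63.7% and 64.2% in ileum at days 4, 8 and 12, against 48.4%, 51.1%, 48.6%, 47.5%, 42.4% and 45.4% with scaling to mapped reads. That scaling moved the median log2 change of all genes from between 0.20 and 0.24 to between -0.35 and -0.04. Within the experiments that held both groups, the change from the graft to day 12 was upward in 3 of 3 experiments, in colon and in ileum, for all members other than Pros1. For Timd4, Mertk, Gas6, Tyro3 and Stab1, with at most 5 reads in the graft, an upward sign was nearly fixed in advance. It is therefore no support for them, and the share of all genes with such agreement was not counted. To ileum day 4, where Mfge8 was called, its change was upward in experiment 2 (1.77) and downward in experiment 1 (-0.28).

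Between colon and ileum no member was called at day 4 (with only experiment 2 at ileum day 4, Axl at -1.18, Stab1, Pros1 at -1.93, Mfge8 at -1.26 and Gas6 were), 8 were called at day 8 and 7 at day 12, against 3.18%, 35.0% and 32.5% of all genes. At day 8, 2 members (Gas6 and Tyro3) were higher in colon and 6 in ileum, and at day 12 the same 2 were higher in colon and 5 in ileum, where of all genes 16.7% and 15.3% were higher in colon on these days and 18.3% and 17.2% in ileum. The share of called genes higher in colon at day 8 was 47.8% in all genes, and 66.2% with scaling to mapped reads. Axl was lower in colon, with log2 differences of -1.10 ± 0.37 at day 8 (adjusted p = 0.026) and -1.51 ± 0.34 at day 12 (adjusted p = 0.0021). For Pros1 they were -1.59 ± 0.55 (adjusted p = 0.028) and -1.82 ± 0.48 (adjusted p = 0.0065), for Cd36 -2.27 ± 0.60 (adjusted p = 0.0060) and -1.43 ± 0.51 (adjusted p = 0.034), and for Mfge8 -1.80 ± 0.45 (adjusted p = 0.0042) and -1.09 ± 0.40 (adjusted p = 0.038). With scaling to mapped reads the day 8 calls of Axl (-0.78, adjusted p = 0.099) and Pros1 (-1.25, adjusted p = 0.077) and the day 12 call of Mfge8 (-0.95, adjusted p = 0.076) were lost. The latter was also lost with scaling to reads on genes (-1.08, adjusted p = 0.056) and with all 4 colon day 8 libraries in the fit (-1.09, adjusted p = 0.059), and the day 12 call of Cd36 with only the compared groups (-1.44, adjusted p = 0.052) and with all 4 colon day 8 libraries (-1.43, adjusted p = 0.070). At day 12 each of the 9 members had the same direction in 3 of 3 experiments, and the share of all genes with such agreement was not counted. For Axl the differences on the log2(normalized reads + 50) scale were -0.60, -1.24 and -1.71. For Mertk they were only -0.19, -0.14 and -0.16, with overlap of the libraries. Its edgeR test with no minimum on reads had an adjusted p of 0.47. At day 8 Axl differed between the 2 experiments with both segments, by 0.03 in experiment 2 and -1.22 in experiment 3.

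**Figure D3:**
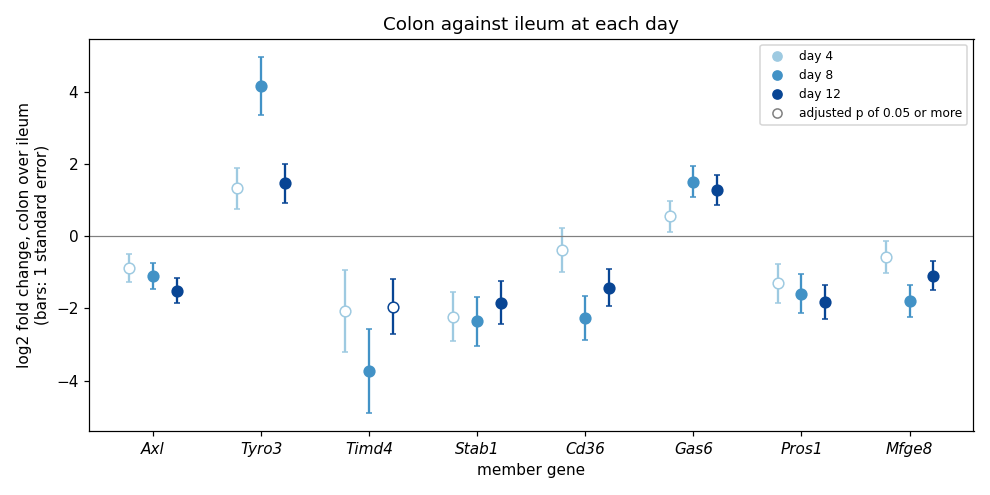
Fitted log2 fold change of colon over ileum (points, with 1 standard error) for the 8 tested members at days 4, 8 and 12; open points had an adjusted p of 0.05 or more. Gas6 and Tyro3 lie above 0 and the other 6 below 0 on each day.

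Single libraries carried several of these calls. Without colon day 8 replicate 3, or without replicate 4, 4 of the 8 calls of day 8 were lost, those of Timd4 and, with adjusted p from 0.053 to 0.15, Axl, Pros1 and Stab1. Leaving out ileum day 8 replicate 1 or 4 ended the calls of Axl and Pros1 (adjusted p from 0.054 to 0.074). At day 12 Axl and Pros1 stayed called under every omission. Stab1 was lost without colon replicate 1 or 3 or ileum replicate 4 (adjusted p from 0.068 to 0.072), Cd36 without colon replicate 1, 2 or 3 or ileum replicate 4 (0.086 to 0.14), Mfge8 without colon replicate 1, 3 or 4 or ileum replicate 1, 3 or 4 (0.057 to 0.11), and Tyro3 without colon replicate 1, 3 or 4 or any ileum replicate (0.051 to 0.11). Colon day 12 replicate 4, which stood apart with 193 normalized reads of Cd36, made the Cd36 difference of that day smaller: without it the difference was -2.21 (adjusted p = 0.0041), and with other single libraries left out it ran to -1.09 (without ileum day 12 replicate 4). A further colon library labelled day 8 (replicate 1) was kept out of the tests, since it matches no column of the study's source data. It held 141 normalized reads of Timd4, 1537 of Axl, 993 of Stab1, 201 of Cd36 and none of Tyro3, with a macrophage sum of 43400 and an epithelial sum of 64830. With it in the fit, the day 8 differences were -0.34 for Timd4 (adjusted p = 0.86), -0.02 for Axl (adjusted p = 0.98), -1.72 for Stab1 (adjusted p = 0.051) and -1.48 for Cd36 (adjusted p = 0.083).

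Along time, few changes passed the test. None of the 8 members was called from day 4 to day 8 or from day 8 to day 12 in colon, from day 8 to day 12 in ileum, or for the difference between segments in the change from day 4 to day 12. These comparisons called 0.0%, 0.0%, 0.0% and 0.0% of all genes by edgeR at the adjusted threshold, while 204, 329, 796 and 739 genes had an unadjusted p under 0.05, and DESeq2 called 0, 0, 0 and 1 genes. From day 4 to day 8 in ileum 5.13% of all genes were called, and of the members Tyro3 alone. In that step Mfge8 had a fitted change of 1.36 ± 0.41 (adjusted p = 0.052, or 0.017 by DESeq2) and Cd36 of 1.63 ± 0.55 (adjusted p = 0.088, or 0.040 by DESeq2), while the day 4 libraries came from experiments 1 and 2 and the day 8 libraries from experiments 2 and 3. Ordered by group mean, neighbouring groups overlapped in their libraries at every step for Axl and Pros1. For Gas6, Stab1, Timd4, Mertk and Cd36 the only break in the order was between the graft and the lowest gut group. Tyro3 had its only break between ileum day 12 and ileum day 8, and Mfge8 had breaks between ileum day 12 and colon day 12 and between colon day 4 and the graft.

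In the CX3CR1-DTR colon Gas6 and Tyro3 were higher, and Cd36 lower, than in the CD11c-DTR colon at day 12. Values here are gene-normalized reads, per 10000000 reads on genes, since the second table gives no mapped total. Gas6 held 11783, 9980, 10342, 8642, 7347 and 11609 in the 6 libraries, against 4807, 3108, 2912 and 5316 in the CD11c-DTR colon. The 2 models did not overlap, and the fitted difference was 1.28 ± 0.24 on the log2 scale (adjusted p = 0.00029). Tyro3 ranged from 141 to 221 against 58.1 to 76.9, again without overlap (1.25 ± 0.26, adjusted p = 0.00080). Cd36 went the other way, with 0, 0, 1, 0, 4 and 0 counted reads against 30, 19, 42 and 117, a log2 difference of -5.44 ± 0.75 (adjusted p = 2.3e-05). Timd4 had 0 reads in all 6 libraries, against 60 in the 4 CD11c-DTR colon libraries, so that the latter was at least 4.39-fold higher than the limit of 3 counts per library. Without CD11c-DTR colon replicate 2 this limit was 1.5. With no minimum on reads the difference had an adjusted p of 0.0027.

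Axl (273 to 874 against 406 to 893), Stab1 (842 to 2321 against 410 to 1893) and Mfge8 (1048 to 2590 against 671 to 1395) overlapped between the models, with fitted differences of -0.18 ± 0.35, 0.45 ± 0.43 and 0.63 ± 0.28 (adjusted p = 0.68, 0.38 and 0.067). Stab1 was called without CD11c-DTR colon replicate 4 (1.11, adjusted p = 0.027), and Mfge8 without CD11c-DTR colon replicate 2 (0.89, adjusted p = 0.018) or CX3CR1-DTR replicate 5 or 6 (adjusted p = 0.048 and 0.045). Pros1 held 0 reads in replicate 1 and 104 to 171 gene-normalized reads in the other 5, and differed by -0.42 ± 0.45 (adjusted p = 0.44). Mertk held 26 reads in 6 libraries. In all, 3 of 7 tested members were called between the models, against 60.7% of all genes. The epithelial sum was 177100 to 218800 in the CX3CR1-DTR colon and 165500 to 215100 in the CD11c-DTR colon on this scale, the macrophage sum 3959 to 6962 and 7263 to 24010. The pan-leukocyte sum overlapped (2012 to 5794 and 3310 to 10590). Of single markers, Ptprc, the gene of the leukocyte antigen CD45, held 13.7 to 34.1 against 255 to 1639, Csf1r, a receptor of macrophage growth factors, overlapped (983 to 2819 against 1704 to 6692), and Cd68 had the higher median in the CX3CR1-DTR colon (660 to 2035 against 237 to 772). The 2 models were counted in separate tables, so the recipient and the table cannot be told apart.

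Against the graft, 5 of 7 tested members rose in the CX3CR1-DTR colon and none fell, where 75.5% of all genes were called and 39.5% called higher. The graft libraries were those of the CD11c-DTR transfers, and none came from the CX3CR1-DTR transfer. Graft and CX3CR1-DTR colon were counted in separate tables, so a change after transfer cannot be told apart from the table or the transfer. Gas6 was 8341-fold higher by pooled counts (interval 1497 to 329464), Stab1 207-fold (88.3 to 637) and Tyro3 146-fold (26.0 to 5800). Mfge8 rose by 2.63 ± 0.35 on the log2 scale (adjusted p = 8.9e-06) and Axl by 1.64 ± 0.43 (adjusted p = 0.0028). Cd36 had a change of -1.83 ± 1.01 (adjusted p = 0.11), and it was -3.23 (adjusted p = 0.033) without CX3CR1-DTR replicate 5, the library with 4 of its 5 counted reads. Pros1 had a change of -0.43 ± 0.49 (adjusted p = 0.44).

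**Figure D4:**
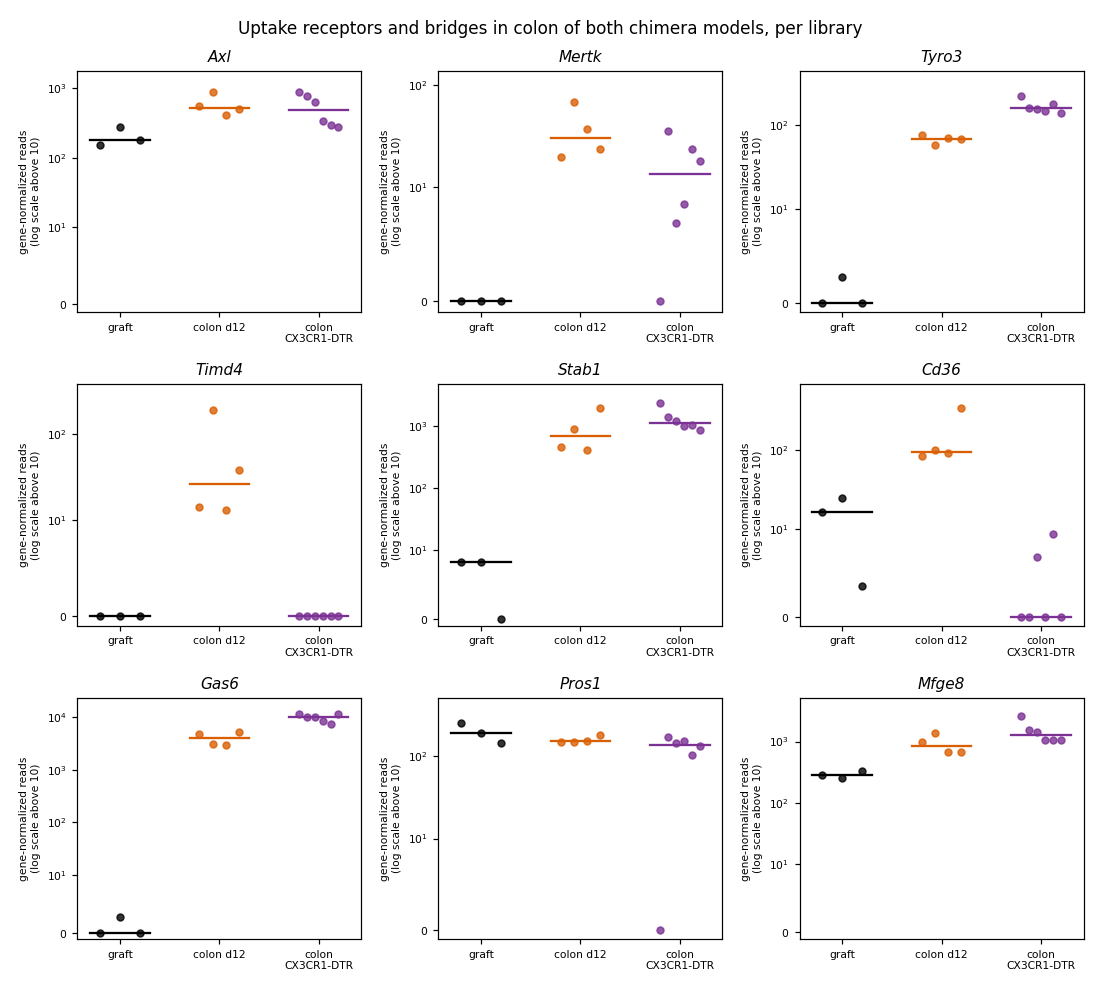
Gene-normalized reads (per 10000000 reads on genes) of the 9 members in the graft, in CD11c-DTR colon at day 12 and in CX3CR1-DTR colon, per library (points) with the group median (line), on an axis that is logarithmic above 10. Gas6 and Tyro3 lie highest in CX3CR1-DTR colon, where Timd4 is at 0 in all 6 libraries and Cd36 in 4 of 6.

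The other genes of this pathway were followed in 6 lists, and their counts at day 12 stand against all genes tested, of which 37.7% rose and 24.9% fell from the graft to colon and 35.9% rose and 20.0% fell to ileum. Of 15 tested other uptake receptors, 1 rose and 7 fell from the graft to colon at day 12 (median log2 change -1.45, against 0.24 over all genes), and 6 rose and 4 fell to ileum (0.77 against 0.22). Itgam, the alpha chain of complement receptor 3, fell from 2886 to 4747 normalized reads in the graft to 89.1 to 455 in colon (-3.90 ± 0.62, adjusted p = 9.3e-06). The phosphatidylserine-binding receptors Cd300a and Cd300lf fell by 3.75 and 3.40 on the log2 scale in colon (SE 0.61 and 0.60, adjusted p = 1.2e-05 and 3.6e-05), and Itgb3, an integrin chain that pairs with alpha v to bind MFG-E8, fell by 2.82 (SE 0.58, adjusted p = 0.00020). Cd300lf and Itgb3 in ileum at day 12 did not pass the test against the graft (-0.07 ± 0.53 and -0.20 ± 0.54). Itgav and Itgb5, integrin chains of the same list, rose from the graft to ileum at day 12 and were not called in colon. Against ileum at day 12, 12 of the 15 were lower in colon and none was higher, with a median of -1.86, against 17.2% lower and 15.3% higher and a median of -0.01 over all genes.

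Of 10 tested bridges and opsonins, 4 rose and 3 fell from the graft to colon at day 12 (median 0.43 against 0.24) and 4 rose and 4 fell to ileum (0.10 against 0.22). The 7 called in colon were near the 62.6% called over all genes. The 3 chains of C1q, which tags dying cells for uptake, rose most: C1qa from at most 39.3 normalized reads in the graft to 2112 to 7735 in colon and 12651 to 34542 in ileum (log2 7.37 ± 0.89 and 9.75 ± 0.97, adjusted p = 1.9e-07 and 1.8e-08), with C1qb at 6.59 and C1qc at 7.10 in colon. C3, the central complement component, fell from 4303 to 6294 in the graft to 86.5 to 516 in colon and 179 to 601 in ileum. The C1q chains were lower in colon than in ileum at day 12 (log2 differences from -2.39 to -2.01, adjusted p from 0.0044 to 0.0074), and Anxa1 and Lgals3 were higher in colon.

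Of 14 tested genes of the engulfment machinery, which carries the signal to actin, 3 rose and 10 fell in colon at day 12 (median -1.31 against 0.24 over all genes) and 2 rose and 9 fell in ileum (-1.04 against 0.22). Over all genes 24.9% fell in colon and 20.0% in ileum. Those named by size were Rac2 (-4.80 ± 0.56 in colon), a Rac GTPase of blood cells, Dock2 (-4.93 ± 0.54), its exchange factor in leukocytes, and Elmo2 (-4.15 ± 0.37), a partner of DOCK proteins. Bcar1, an adhesion scaffold used by many adherent cells, rose from at most 3.88 normalized reads to 203 to 383. Phagosome maturation genes (17 tested) counted 3 up and 10 down in colon (median -0.63 against 0.24) and 2 up and 6 down in ileum (-0.30 against 0.22), where the 8 called of 17 were below the 55.9% called over all genes. Ctsl, a lysosomal protease, rose in both segments (1.82 ± 0.33 and 2.70 ± 0.34), whereas Atg7 and Uvrag, of the autophagy pathway, fell in both. The fall of Cd68, a macrophage lysosomal protein, was called in colon (-2.76 ± 0.51, adjusted p = 5.7e-05) and not in ileum (-0.65 ± 0.49, adjusted p = 0.27). Rac2, Dock2 and Cd68 are leukocyte genes, and the pan-leukocyte sum was lower than in the graft in every gut library, those of ileum included. Whether this had a part in the falls of these or the other genes was not tested.

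Of 12 genes of the response to engulfed cells, 7 rose and 2 fell in colon at day 12 (median 1.42 against 0.24 over all genes), and 5 rose and none fell in ileum (0.77 against 0.22), while 62.6% and 55.9% of all genes were called and 37.7% and 35.9% were higher. Apoe, the lipid carrier that macrophages secrete, held 4836 to 11345 normalized reads in the graft, 16752 to 55237 in colon and 38269 to 206046 in ileum (2.33 ± 0.64 and 4.43 ± 0.71, adjusted p = 0.0029 and 1.4e-05). Socs3, an inhibitor of cytokine signalling, rose by 3.13 ± 0.33 in colon and 4.08 ± 0.34 in ileum. Pparg, a lipid-sensing nuclear receptor, rose by 4.33 ± 0.53 in colon and 2.28 ± 0.51 in ileum and was higher in colon (2.05 ± 0.41, adjusted p = 0.00099), unlike Apoe, which was higher in ileum. Abcg1, a cholesterol exporter, fell in colon (-2.14 ± 0.50) and not beyond error in ileum (-0.13 ± 0.48). In the list of find-me and do-not-eat-me genes, 3 rose and 3 fell of 9 in colon (median -1.16 against 0.24), and 3 rose and 1 fell in ileum (0.40 against 0.22), against 62.6% and 55.9% called over all genes. Sirpa and Cd47, the inhibitory receptor and its ligand, fell in colon by 2.81 and 2.06 on the log2 scale (SE 0.57 and 0.28), and Pecam1, shared by endothelium and leukocytes, rose by 2.03 ± 0.68 in colon and 3.84 ± 0.73 in ileum. With scaling to mapped reads, 1 phagosome gene rose and 10 fell in ileum, 2 response genes fell there beside the 5 that rose, and the medians in ileum of the bridges (-0.39) and of the find-me list (-0.08) changed sign; no list gene called under both scalings changed direction.

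**Figure D5:**
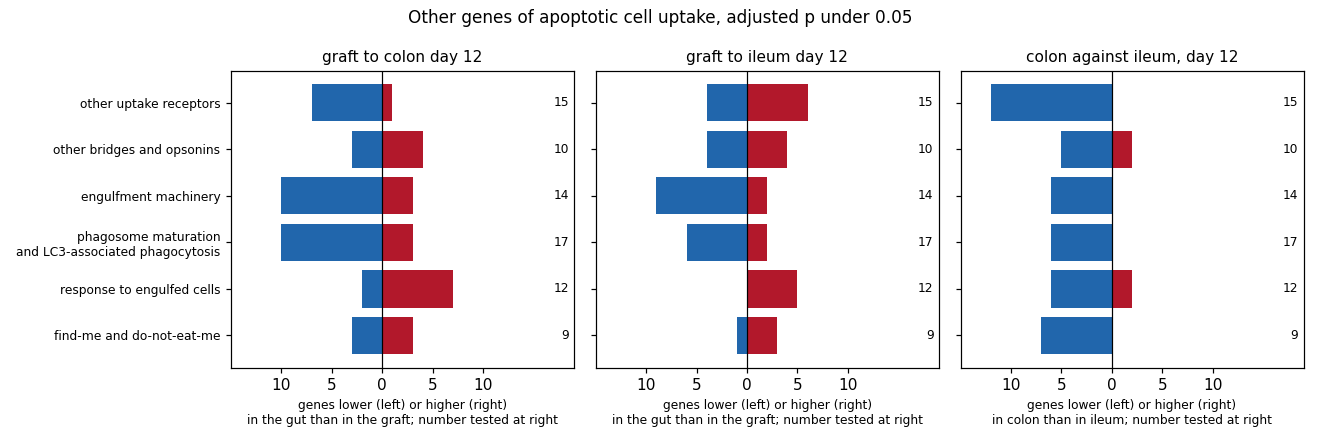
Number of genes of 6 lists with an adjusted p under 0.05, lower (blue, left) or higher (red, right), from the graft to colon and to ileum at day 12 and in colon against ileum at day 12; the number tested stands at the right of each row. Engulfment machinery counts 10 lower and 3 higher in colon against the graft, and other uptake receptors 12 lower and 0 higher in colon against ileum.

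The genes whose levels across the 25 libraries were most like each member differed between members. Likeness was Pearson's r of log2(normalized reads + 50) among 5573 tested genes with a mean of at least 200 normalized reads, a description over libraries that share the contrast of graft and gut. For Gas6 they were Krt8 (0.986), Epcam (0.983) and Klf5 (0.982), the first 2 of which are epithelial markers. For Stab1 they were C1qa (0.952), Pdgfb (0.940) and Pf4 (0.939), and for Axl Cd74 (0.939), H2-Aa (0.935) and Apoe (0.931), of which Cd74 and H2-Aa serve antigen presentation. Timd4 was most like Pla2g2d (0.902), Cxcl9 (0.900) and Fgl2 (0.870), and Cd36 most like Cd200 (0.899), Adgrf5 (0.880) and Tmem88 (0.869). For Mfge8 they were Slc9a3r2 (0.916), Tmem176a (0.915) and Clic4 (0.902), for Tyro3 Slc39a11 (0.901), Galnt7 (0.890) and Pgap2 (0.885), and for Pros1 Csrp1 (0.813), Hdac7 (0.808) and Slc43a3 (0.800). Over the 22 gut libraries alone, a choice made after seeing the data, the genes most like Gas6 were Tradd (0.952), Pex14 (0.950) and Fam98c (0.950), those most like Stab1 were Cd4 (0.938), Renbp (0.922) and Pea15a (0.919), and those most like Axl were again Apoe (0.917), Cd74 (0.914) and H2-Aa (0.911).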

How the data were processed

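RNA was sequenced by a derivative of MARS-seq, which reads the 3' ends of transcripts; per the labels, reads were aligned to mm9 with HISAT 0.1.6 and counted on exons with HOMER, and whether molecular barcodes were collapsed is not stated for these tables. The deposited values are raw counts per gene made by the authors from uniquely mapped reads on the sense strand; 52 unnamed columns of the second table were not used. Normalized reads were scaled to 10000000 mapped reads, and gene-normalized reads to 10000000 reads on genes. Tests were edgeR's (4.0.16) quasi-likelihood test on counts with TMM factors, in R 4.3.3, with all 7 groups of 25 libraries in the fit (13 libraries for CX3CR1-DTR comparisons) and Benjamini-Hochberg adjustment over all genes tested; a call is an adjusted p under 0.05. The test was first run on simulated counts in which few genes changed and all genes had the same spread. That setting does not cover the many changes against the graft or the uneven spread between these libraries. DESeq2 1.42.0, other scalings, no filter, other sample sets, experiment as a replicate block and omission of each library were the alternatives; those for the pathway lists and for the lower limits of folds were chosen after seeing the data. Intervals and the limit of 3 counts cover counting error only. Replicates carry numbers in accession order, and where nothing says that they are separate animals, p-values measure only the spread between these libraries. No duplicate was found among 51 library pairs within groups (chi-square per degree of freedom at least 4.73). The experiment, read from the dates in the labels, pairs libraries by a shared transfer; deviations from group means of libraries of the same experiment correlated at a median of 0.020 over 96 pairs (from -0.477 to 0.517), against -0.009 over 171 pairs of different experiments. The 9 members and the gene lists were chosen with earlier results of these data known. From each list, up to 4 genes were named by the size of their change from the graft to colon day 12, if called, without overlap of libraries and averaging 200 or more normalized reads in 1 of the groups; the genes most like a member were taken as the 3 highest correlations. Bai1, Kiaa0226 and Emr1 of the lists were not found under those symbols. Sequences are from RefSeq, in which all 9 members matched by symbol.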

Additional observations from a re-analysis of the deposited data

Results flagged for a closer look

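In 44 groups of 4 to 6 libraries, 6 member values stood apart from the rest of their group by Dixon's test on values that were not logged. Chance gives this in about 1 in 20 groups if values are normally spread and groups independent. These groups were the members in the same sets of libraries, so that rate is no measure of an excess. Timd4 held 112 normalized reads in colon day 12 replicate 2, where the nearest other library held 21.4, and 6.80 in ileum day 8 replicate 4, where the nearest held 43.5. Cd36 held 193 normalized reads in colon day 12 replicate 4, next to 59.2. Mertk held 40.5 in ileum day 8 replicate 2, next to 19, at 12 counted reads. In CX3CR1-DTR colon, replicate 1 held the highest level of Mfge8 (2590 gene-normalized reads, next to 1533) and of Stab1 (2321, next to 1357). This library had the fewest reads of its group, 1223772, and no read of Pros1, Mertk or Cd36. It also had the highest macrophage (6962), pan-leukocyte (5794) and endothelial (1708) sums of its group.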

How the results depend on the processing

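The number of members called was within 1.5 times under every alternative for all 7 comparisons with the graft and for CX3CR1-DTR against CD11c-DTR colon, and it was 0 throughout for both steps in colon, for ileum day 8 to day 12 and for the difference between segments over time. In ileum from day 4 to day 8, 1 member was called; DESeq2 called 3, a fit with no minimum on reads 2, and fits with only the compared groups, with only experiment 2 at ileum day 4 and with experiment as a replicate block 0; omission of single libraries gave 0 to 2. For colon against ileum at day 4, where 0 were called, the count was 1 by DESeq2, 5 with only experiment 2 at ileum day 4, 1 with the replicate block and 0 to 2 with single libraries left out. At day 8 it was 4 of 8 with all 4 colon day 8 libraries and 4 to 8 with single libraries left out; at day 12 it was 4 with all 4 colon day 8 libraries and 3 to 8 with single libraries left out. The replicate block changed no member's call other than those given in the report. Of 672 values of single members under settings other than the omission of 1 library, 629 kept direction and call, 26 lost a call, 17 gained one and 0 changed sign. Of 2107 with a library left out, 2032 kept both, 53 lost a call, 19 gained one and 3 changed sign: Pros1 from the graft to colon day 12 (-0.34 to 0.03), Mfge8 in colon against ileum at day 4 (-0.88 to 0.16) and Axl between the models (-0.36 to 0.09), none of them called. Over all genes, the 377 calls of colon against ileum at day 4 became 0 to 3069 and the 608 of ileum day 4 to day 8 became 0 to 1348 (DESeq2: 1080 and 994), the 4144 of colon against ileum at day 8 fell to 2653 without colon day 8 replicate 4, and the difference between segments over time gained up to 63 calls, without ileum day 4 replicate 1. The cause was not tested. Depth limits Mertk, Tyro3 and Timd4, whose libraries often held under 20 reads.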
